A study of Homo sapiens with 8 samples.

Results

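The KRAB zinc finger genes of human chromosome 19p12 were described in LN229 cells through 35 genes, listed by symbol. The list was chosen with earlier results of these data known. Shares of these genes set beside shares of all genes are therefore a description and not a test. For each, the rows of the deposited table that name this gene alone were taken, and the brightest of them on average over the 8 samples was used. This gave 32 measured genes of the 33616 genes with such a row. ZNF714, ZNF431 and ZNF726 have no value, because their rows also name a pseudogene (VN1R81P, VN1R82P and ZNF92P3). LN229 is an established human glioblastoma cell line, so that the data describe 1 line in culture.

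The 4 samples titled 23 Pa CSS and the 4 titled no CSS are total RNA of LN229 cells on Transwell membranes. CSS is compressive solid stress, a pressure of 23 Pa applied for 18 h by stainless-steel discs on an agar cushion. The uncompressed wells carried neither discs nor cushion, so weight and cushion cannot be told apart. In every sample the title and the source name give opposite conditions. Groups were taken from the titles here, and all signs turn if the source names are right. Nothing in the labels says that the replicates are separate cultures, so p-values measure the spread between these samples, which may be technical.

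KRAB zinc finger proteins bind DNA through arrays of C2H2 fingers. Their KRAB domain recruits TRIM28 (KAP1), which in turn brings in the histone methyltransferase SETDB1 and HP1 proteins, and the bound chromatin is silenced. Many of them bind transposable elements. The genes of 19p12 lie among pseudogenes, the named ones mostly of other gene families. The zinc finger genes arose largely by tandem duplication in primates, so that paralogues share long stretches of sequence.

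That shared sequence can be read at the starts of the genes. RefSeq (GRCh38.p14) gave a promoter, here 250 bases before to 50 after the annotated start, for 27 of the 35 genes. The other 8 are ZNF506, ZNF99, ZNF728, ZNF738, ZNF253, ZNF98, ZNF729 and ZNF676. Of the 351 pairs among the 27 genes, 130 (37.0%) shared an unbroken run of at least 25 bases. The median longest run of a pair was 22 bases. The longest, 46 bases, was shared by ZNF208 with ZNF254 and by ZNF208 with ZNF85. ZNF101, ZNF14 and ZNF682 shared no run of 25 bases with any other of the genes. The most frequent words of 12 bases were then looked for, exactly and on both strands, in the promoters of all genes. The first word, GTCCAATCAGGC, was in 18 of the 27 promoters (66.7%) and in 14 of 27278 other genes (0.0513%). It contains CCAAT, the letters of the CCAAT box, which were in 27 of the 27 promoters and in 39.7% of the others. The second word, CTGTCACTCAGG, was in 17 (63.0%) and in 21 other genes (0.0770%). The words were picked as the most frequent in these promoters, so their high share there follows from the choice. The first began 60 to 53 bases before the start of the gene, with a second copy in ZNF675 that began 25 bases before it, and the second word began at a median of 126 bases before it.

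Promoters of ZNF85 (chr19:20923001-20923300, plus strand), ZNF43 (chr19:21836133-21836432, minus strand), ZNF675 (chr19:23687163-23687462, minus strand) and ZNF91 (chr19:23395422-23395721, minus strand) are printed because these genes had the smallest adjusted p-values. ZNF14 (chr19:19733063-19733362, minus strand) lies at the edge of the group and is shown as one without an exact match to either word. Its promoter does hold both words with only the last letter changed. All are from RefSeq on GRCh38.p14, 5′ to 3′ on the strand of the gene, with the first and second words in capitals.
ZNF85: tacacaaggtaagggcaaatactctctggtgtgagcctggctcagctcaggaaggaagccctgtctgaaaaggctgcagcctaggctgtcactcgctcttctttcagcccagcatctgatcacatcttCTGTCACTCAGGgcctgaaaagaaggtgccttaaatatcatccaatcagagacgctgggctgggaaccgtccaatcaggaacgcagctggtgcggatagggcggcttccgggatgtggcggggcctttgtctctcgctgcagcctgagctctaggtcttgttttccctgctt
ZNF43: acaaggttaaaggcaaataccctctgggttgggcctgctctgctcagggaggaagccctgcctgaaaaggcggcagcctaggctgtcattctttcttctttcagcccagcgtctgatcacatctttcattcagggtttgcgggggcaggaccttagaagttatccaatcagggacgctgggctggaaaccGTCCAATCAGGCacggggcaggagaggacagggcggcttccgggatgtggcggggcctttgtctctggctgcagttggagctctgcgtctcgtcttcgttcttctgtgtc
ZNF675: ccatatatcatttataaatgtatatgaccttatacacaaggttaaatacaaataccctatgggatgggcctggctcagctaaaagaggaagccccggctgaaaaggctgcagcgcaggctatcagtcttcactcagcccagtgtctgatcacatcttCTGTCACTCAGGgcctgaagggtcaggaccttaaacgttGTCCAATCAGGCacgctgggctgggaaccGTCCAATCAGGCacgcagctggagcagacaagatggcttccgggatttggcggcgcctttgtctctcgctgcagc
ZNF91: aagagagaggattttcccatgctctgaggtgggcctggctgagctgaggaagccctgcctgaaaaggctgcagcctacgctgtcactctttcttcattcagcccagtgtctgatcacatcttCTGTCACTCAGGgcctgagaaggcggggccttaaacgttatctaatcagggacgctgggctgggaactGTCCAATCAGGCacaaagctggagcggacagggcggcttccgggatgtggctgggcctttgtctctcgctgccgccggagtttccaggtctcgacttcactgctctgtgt
ZNF14: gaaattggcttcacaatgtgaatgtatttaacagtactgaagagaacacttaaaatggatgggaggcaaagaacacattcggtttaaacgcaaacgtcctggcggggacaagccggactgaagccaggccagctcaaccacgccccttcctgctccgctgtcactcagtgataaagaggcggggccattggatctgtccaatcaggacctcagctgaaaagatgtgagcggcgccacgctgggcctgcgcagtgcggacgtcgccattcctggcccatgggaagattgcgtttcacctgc
In ZNF675 (with 2 copies of the first) and ZNF91 both words are present, in ZNF43 the first and in ZNF85 the second. A match describes these letters only and shows no binding.

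Signal is the deposited log2 value of a transcript cluster, the set of probes that the array reads as 1 transcript. Array medians lay between 4.59 and 4.65 in the samples titled 23 Pa CSS and between 4.56 and 4.62 in those titled no CSS. Hybridisation controls averaged 10.51 ± 0.125 in the samples titled 23 Pa CSS and 10.20 ± 0.177 in those titled no CSS (SD, n = 4 each). The polyA controls averaged 7.85 ± 0.139 in the samples titled 23 Pa CSS and 7.30 ± 0.299 in those titled no CSS. Neither control overlapped between the groups. Centring each array on its hybridisation controls gave 20 rather than 10 of the 32 genes lower, with a median difference of −1.03 rather than −0.72. It also gave 8208 rather than 1938 of all transcript clusters lower, and moved the median of all genes from 0.09 to −0.22. The part of the polyA controls was not tested. Of the glioma and glial markers, VIM, S100B, NES and SOX2 averaged 16.91, 14.88, 12.87 and 10.99 in the samples titled 23 Pa CSS, and 16.64, 14.91, 12.20 and 10.64 in those titled no CSS. GFAP and OLIG2 lay lower, at 4.58 and 5.04 titled 23 Pa CSS and at 4.30 and 4.77 titled no CSS, where antigenomic background probes averaged 4.18 titled 23 Pa CSS and 4.03 titled no CSS. Of 28 measured markers the only one with a limma adjusted p under 0.05 was CD68, a lysosomal protein of macrophages and other cells (12.73 titled 23 Pa CSS, 11.25 titled no CSS). The other immune markers measured, PTPRC, CD14 and CD3E, averaged at most 5.59 in either group.

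The comparison asks how the transcripts of these genes differ between cells titled 23 Pa CSS and cells titled no CSS. Each difference subtracts the no CSS mean from the 23 Pa CSS mean on the log2 scale, by title. They were fitted with limma over all 135750 transcript clusters, with Benjamini-Hochberg adjustment over all of them and a threshold of 0.05. Of the 32 measured genes 10 fell, 0 rose and 22 did not pass. Of all genes, 0.97% fell and 1.36% rose at this threshold (of all transcript clusters, 1.43% and 0.581%). Among genes whose mean signal lay in the same range as these, 1.63% fell. An unadjusted p under 0.05 was reached by 24 of the 32 on the lower side and by 0 on the higher side, against 6.74% and 12.6% of all genes. The median difference was −0.72, beside 0.09 over all genes. The difference was below 0 in 29 of 32 genes, against 37.6% of all genes, and above 0 in ZNF729, ZNF90 and ZNF99. In bulk RNA, fewer cells that express a gene and less of its RNA per cell cannot be told apart.

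**Figure D1:**
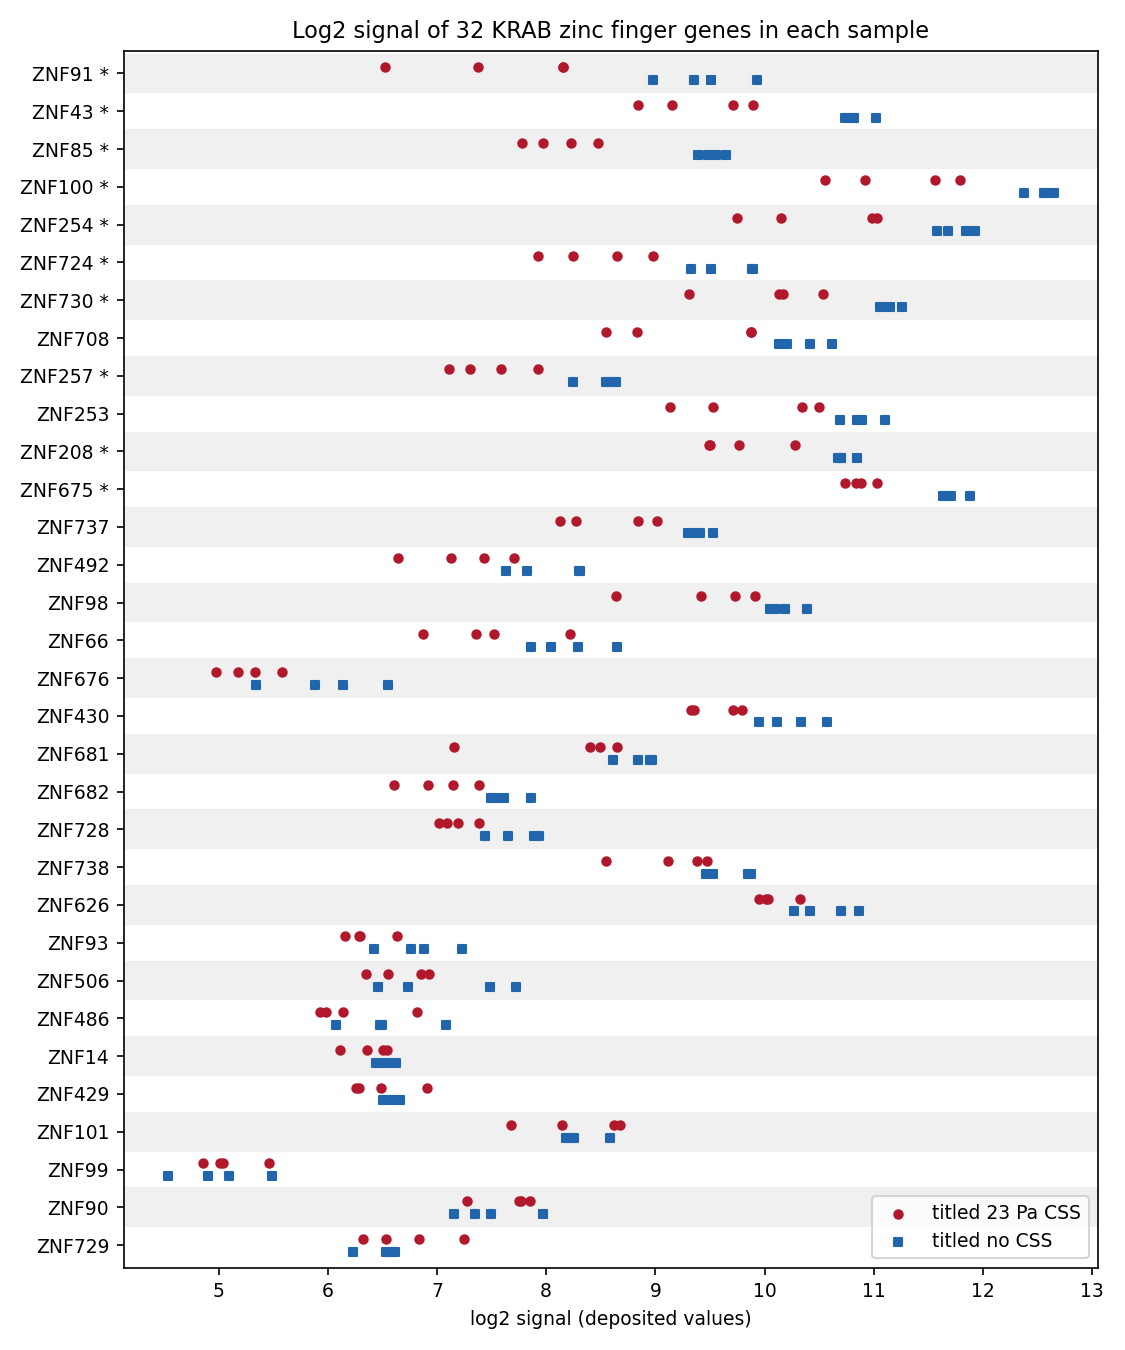
Log2 signal (horizontal axis) of each of the 32 measured genes in each sample, with circles for the 4 samples titled 23 Pa CSS, squares for the 4 titled no CSS, and an asterisk at genes with a limma adjusted p under 0.05. In 17 genes, all circles lie left of all squares, and in 0 genes all lie right of them.

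ZNF91 is known as a repressor of SVA retrotransposons, and it had the largest fitted difference of the 32 genes. In the samples titled 23 Pa CSS its signals were 6.53, 8.15, 8.16 and 7.37 (replicates 1 to 4), against 9.93, 9.51, 9.36 and 8.98 in those titled no CSS. Every sample titled 23 Pa CSS was below every one titled no CSS, and titled 23 Pa CSS replicate 1 stood lowest. The mean was 7.55 ± 0.777 titled 23 Pa CSS against 9.44 ± 0.393 titled no CSS (SD, n = 4 each), a difference of −1.89 ± 0.35 (SE; 95% interval −2.65 to −1.13; limma adjusted p = 0.0247), or 3.71-fold lower. That row exceeded the background, taken as the 95th percentile of the 612 negative control rows of the array, in 2 of 4 samples titled 23 Pa CSS and in 4 of 4 titled no CSS. The mean titled 23 Pa CSS thus lies partly at background, and the size of the fold and its rank among the 32 genes are uncertain. ZNF91 has 2 dimmer rows, with differences of −0.66 (adjusted p = 0.249) and 0.38 (adjusted p = 0.54). With the mean of the 3 rows in place of the brightest, the difference was −0.72 and the adjusted p 0.106.

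ZNF93, which is known to repress LINE-1 elements, had signals of 6.28, 6.30, 6.63 and 6.16 in the samples titled 23 Pa CSS, against 7.23, 6.89, 6.43 and 6.76 in those titled no CSS. The groups overlapped, because titled 23 Pa CSS replicate 3 was above titled no CSS replicate 3. The difference of −0.48 ± 0.20 (SE) did not pass (limma adjusted p = 0.266), and the signal exceeded background in 0 of 4 samples titled 23 Pa CSS and 1 of 4 titled no CSS.

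ZNF85 had the smallest p of the 32 genes. Its signals were 7.78, 8.22, 8.48 and 7.97 in the samples titled 23 Pa CSS, against 9.48, 9.65, 9.39 and 9.56 in those titled no CSS. The lowest sample titled no CSS was above the highest titled 23 Pa CSS by more than the range of either group. ZNF85 fell by 1.41 on the log2 scale (SE 0.19; limma adjusted p = 0.00976), 2.65-fold, and it alone of the 10 genes passed under all 18 alternative settings. It exceeded background in 3 of 4 samples titled 23 Pa CSS and in 4 of 4 titled no CSS.

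ZNF43 had signals of 8.84, 9.89, 9.71 and 9.16 in the samples titled 23 Pa CSS and of 10.74, 11.02, 10.82 and 10.81 in those titled no CSS. It fell by 1.45 (SE 0.23; limma adjusted p = 0.0161), 2.73-fold. Its spread was wider in the samples titled 23 Pa CSS (SD 0.489) than in those titled no CSS (SD 0.12), and the groups did not overlap.

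ZNF675 encodes a protein that binds TRAF6, an adaptor of inflammatory signalling. Its signals were 10.74, 10.84, 11.03 and 10.88 in the samples titled 23 Pa CSS, against 11.64, 11.88, 11.70 and 11.70 in those titled no CSS. The 4 samples of a group were close together here, with an SD of 0.122 titled 23 Pa CSS and of 0.106 titled no CSS. The difference of −0.86 ± 0.15 (SE; limma adjusted p = 0.0228) was the smallest of the 10 genes that passed.

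The next 3 genes by p-value were ZNF100, ZNF257 (also called BMZF-4) and ZNF724. ZNF100 had signals of 10.55, 11.56, 11.79 and 10.92 in the samples titled 23 Pa CSS, against 12.58, 12.55, 12.38 and 12.65 in those titled no CSS (difference −1.33, adjusted p = 0.028). In ZNF257 the signals were 7.31, 7.11, 7.92 and 7.59 in the samples titled 23 Pa CSS, against 8.25, 8.64, 8.55 and 8.57 in those titled no CSS (difference −1.02, adjusted p = 0.0311). ZNF724 measured 7.92, 8.64, 8.98 and 8.25 in the samples titled 23 Pa CSS, against 9.90, 9.51, 9.32 and 9.89 in those titled no CSS (difference −1.20, adjusted p = 0.0332). In ZNF100 and ZNF724 titled 23 Pa CSS replicates 1 and 4 were the lowest samples. In ZNF257 it was replicate 2, and the gene exceeded background in 1 of 4 samples titled 23 Pa CSS and in 4 of 4 titled no CSS, so the size of its difference is uncertain as well. In none of these 3 genes did the groups overlap.

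The other 3 genes that passed were ZNF208, ZNF254 (BMZF-5) and ZNF730. ZNF208 measured 9.49, 9.76, 10.28 and 9.50 in the samples titled 23 Pa CSS, against 10.70, 10.85, 10.67 and 10.70 in those titled no CSS (difference −0.97, limma adjusted p = 0.0346). For ZNF254 the signals were 9.75, 10.99, 11.03 and 10.16 titled 23 Pa CSS, against 11.58, 11.68, 11.85 and 11.93 titled no CSS (difference −1.28, adjusted p = 0.0432). ZNF730 had 9.31, 10.54, 10.17 and 10.13 in the samples titled 23 Pa CSS, against 11.15, 11.07, 11.06 and 11.26 in those titled no CSS (difference −1.10, adjusted p = 0.0432). All of these signals exceeded background, and within each gene the highest sample titled 23 Pa CSS stayed below the lowest titled no CSS. At least a 2-fold lower mean was found in 8 of the 10 genes that passed, and in 10 of all 32, against 1.76% of all genes.

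Of the 22 genes that did not pass, the groups did not overlap in 7, with the samples titled 23 Pa CSS lower each time. Over all 32 genes this gives 17 with that pattern and 0 with the opposite one, against 4.6% and 9.1% of all genes. ZNF737 was the nearest to the threshold, with 8.12, 8.85, 9.02 and 8.28 in the samples titled 23 Pa CSS, against 9.35, 9.53, 9.41 and 9.30 in those titled no CSS (difference −0.83, adjusted p = 0.0758). Its groups lay apart, with titled 23 Pa CSS replicate 3 closest to the samples titled no CSS. In ZNF430, titled 23 Pa CSS replicates 1 and 4 were the highest of their group instead. The signals of ZNF430 were 9.79, 9.36, 9.33 and 9.71 titled 23 Pa CSS, against 10.11, 10.33, 10.57 and 9.95 titled no CSS (difference −0.69, adjusted p = 0.0945).

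ZNF253 (BMZF-1) and ZNF708 differed by as much as genes that passed, with a wider spread. ZNF253 had signals of 9.13, 10.34, 10.50 and 9.53 in the samples titled 23 Pa CSS, against 10.89, 11.10, 10.85 and 10.69 in those titled no CSS (difference −1.01, SE 0.28, adjusted p = 0.0972). For ZNF708 they were 8.55, 9.88, 9.88 and 8.83 titled 23 Pa CSS, against 10.62, 10.13, 10.42 and 10.21 titled no CSS (difference −1.06, SE 0.30, adjusted p = 0.0997). In both, titled 23 Pa CSS replicates 1 and 4 were the lowest samples, and the groups did not overlap.

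ZNF728 measured 7.19, 7.39, 7.02 and 7.09 in the samples titled 23 Pa CSS, against 7.65, 7.89, 7.93 and 7.44 in those titled no CSS (difference −0.56, adjusted p = 0.135). It exceeded background in 0 of 4 samples titled 23 Pa CSS and in 4 of 4 titled no CSS, so the mean titled 23 Pa CSS is only an upper limit. ZNF492 had 6.64, 7.71, 7.43 and 7.13 titled 23 Pa CSS, against 8.31, 7.64, 8.30 and 7.82 titled no CSS (difference −0.79, adjusted p = 0.14). Here the groups overlapped, by titled 23 Pa CSS replicate 2 and titled no CSS replicate 2.

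In a further 8 genes the unadjusted p was under 0.05 and the adjusted p between 0.144 and 0.292. Besides ZNF93 these were ZNF682, ZNF98, ZNF676, ZNF626, ZNF66, ZNF738 and ZNF681, and their differences ran from −0.76 in ZNF98 to −0.48 in ZNF93. ZNF676 exceeded background in 0 of 8 samples. The remaining 8 genes, ZNF506, ZNF486, ZNF729, ZNF14, ZNF90, ZNF429, ZNF99 and ZNF101, had differences between −0.43 (ZNF506) and 0.25 (ZNF729), with intervals that include 0. In 5 of these 8 the signal exceeded background in 0 of 8 samples (ZNF486, ZNF729, ZNF14, ZNF429 and ZNF99), so their values are only upper limits. ZNF101, at one end of the group, was above background in all 8 samples and had a difference of −0.03 (95% interval −0.54 to 0.49). Of the 32 genes, 15 exceeded background in all 8 samples, 11 in some and 6 in 0. The genes with 2 rows were ZNF98 (−0.76, and −0.04 in the dimmer row), ZNF429 (−0.09 and −0.21) and ZNF506 (−0.43 and −0.02). None of their rows passed.

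Samples titled 23 Pa CSS were not alike. Measured from the gene's mean over the no CSS titles, the median over the 32 genes was −1.11 in titled 23 Pa CSS replicate 1, −0.62 in replicate 2, −0.46 in replicate 3 and −0.68 in replicate 4. The same medians over all genes were 0.14, 0.05, 0.04 and 0.10. Replicate 1 was the lowest of its group in 19 of the 32 genes and in 9 of the 10 that passed, and replicate 3 was the highest in 20 of 32 and in 8 of 10. The median SD of the 32 genes was 0.405 in the samples titled 23 Pa CSS and 0.183 in those titled no CSS. Over all genes the median SD was 0.269 titled 23 Pa CSS and 0.243 titled no CSS. The SD was larger in the samples titled 23 Pa CSS in 71.9% of the 32 genes and in 55.5% of all genes. Without replicate 1 of that group, the median difference of the 32 genes was −0.58 and 3 of them passed. In that fit 663 of all transcript clusters were called lower, against 1938 as reported.

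**Figure D2:**
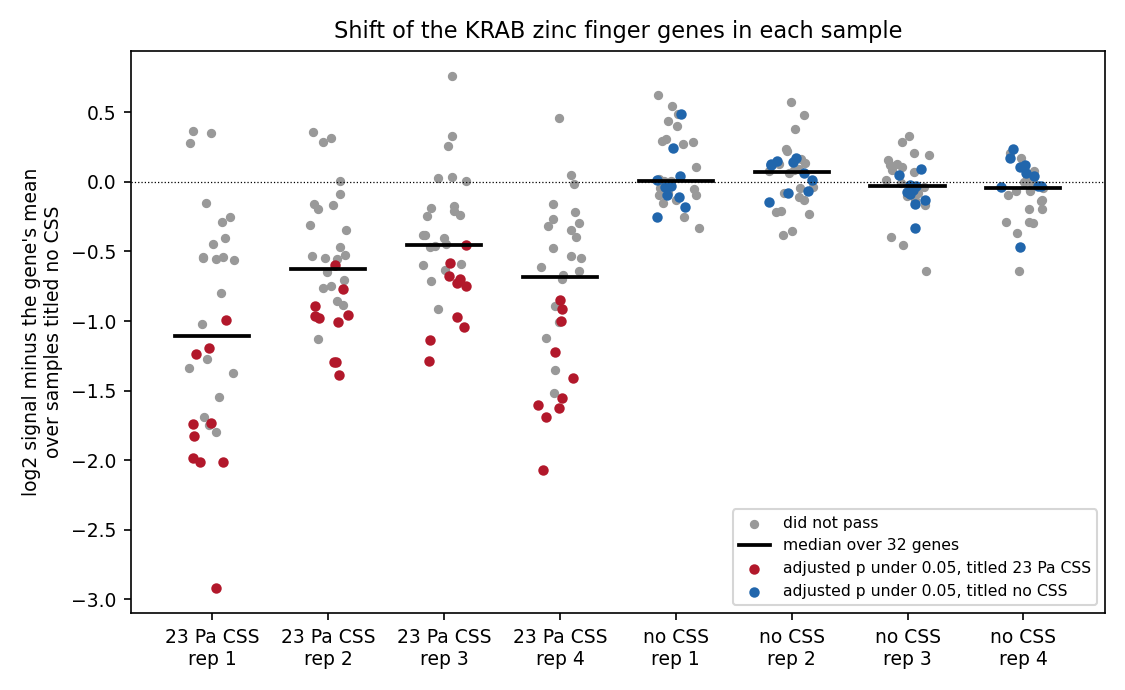
Log2 signal relative to the gene's mean over the no CSS titles (vertical axis) for the 32 genes in each of the 8 samples, with coloured points for the 10 genes that passed and a bar at the median over the 32 genes. The bar lies at −1.11 in titled 23 Pa CSS replicate 1 and at −0.46 in replicate 3, and within 0.1 of 0 in the samples titled no CSS.

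The number of genes that passed depended on single samples. Leaving out 1 sample gave between 1 and 13 genes lower, and 0 higher each time, while the median difference stayed between −0.84 and −0.58. The count was 3, 6, 13 and 1 without titled 23 Pa CSS replicates 1, 2, 3 and 4, and 4, 1, 2 and 1 without titled no CSS replicates 1, 2, 3 and 4. Lower calls over all transcript clusters, 1938 as reported, moved too. In the same order they were 663, 870, 4077 and 416, and 856, 289, 776 and 266. The swing is thus not particular to the 32 genes. ZNF85 passed in each of these fits. ZNF43 did not pass in 3 of them, without titled 23 Pa CSS replicate 4 and without titled no CSS replicate 2 or 4. The other 8 genes each lost the call in 5 to 7 of the 8 fits.

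**Figure D3:**
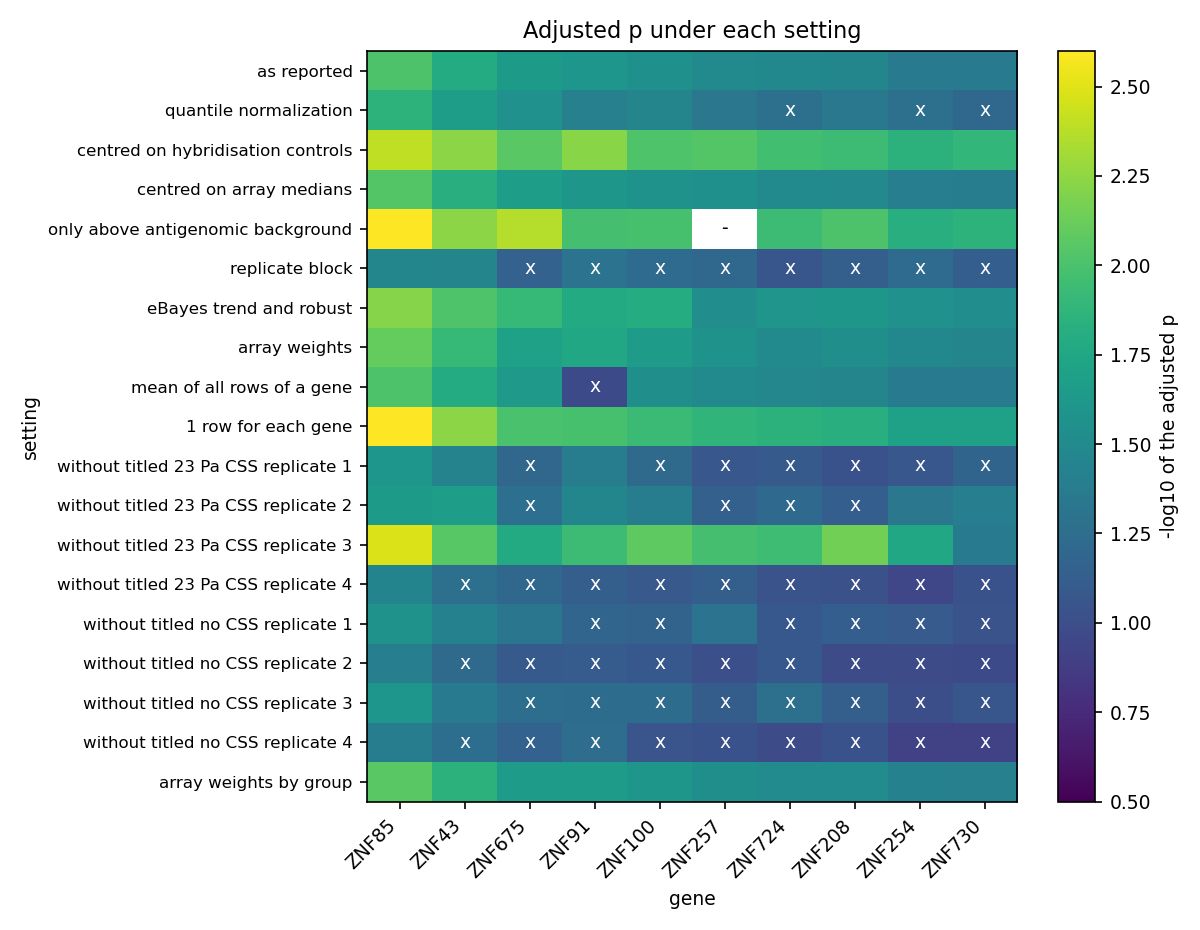
Limma adjusted p, as −log10 in colour, of the 10 genes (horizontal axis) under the reported setting and each alternative (vertical axis), with a cross where the gene did not pass and a dash where it was not tested. ZNF85 has 0 crosses in 18 alternatives and ZNF43 has 3.

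Along the chromosome, the genes that passed were not all neighbours. In the order of RefSeq annotated genes, ZNF85 stands at position 68, counted from ZNF101 as 1. ZNF100, ZNF43, ZNF208 and ZNF257 stand at positions 99 to 112, and ZNF730, ZNF724, ZNF91, ZNF675 and ZNF254 at 154 to 191. The 11 genes at the ZNF101 end, up to position 58, held 0 of the 10. Of these, ZNF253 (−1.01), ZNF737 (−0.83) and ZNF682 (−0.61) did have groups that did not overlap. ZNF14 and ZNF486 there exceeded background in 0 of 8 samples. A boundary along the chromosome was not tested. Of 156 other genes of the interval, mostly pseudogenes and non-coding RNAs, 68 were measured. Most of the 68 averaged below background (on average 7.63 titled 23 Pa CSS and 7.41 titled no CSS), so their differences say little. Of the 68, 1 fell and 0 rose, and their median difference was 0.07. The one was VN1R83P, a vomeronasal receptor pseudogene next to ZNF708 in that order (6.88 titled 23 Pa CSS, 7.78 titled no CSS; difference −0.89, limma adjusted p = 0.0266). VN1R83P lay below background in every sample titled 23 Pa CSS. VN1R84P, next to ZNF100, was second by p-value (difference −0.86, adjusted p = 0.0581). RPS27P29, a ribosomal protein pseudogene, had a difference of 0.82 (adjusted p = 0.0842), and ZNF493, a further zinc finger gene, one of −0.57 (adjusted p = 0.171).

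**Figure D4:**
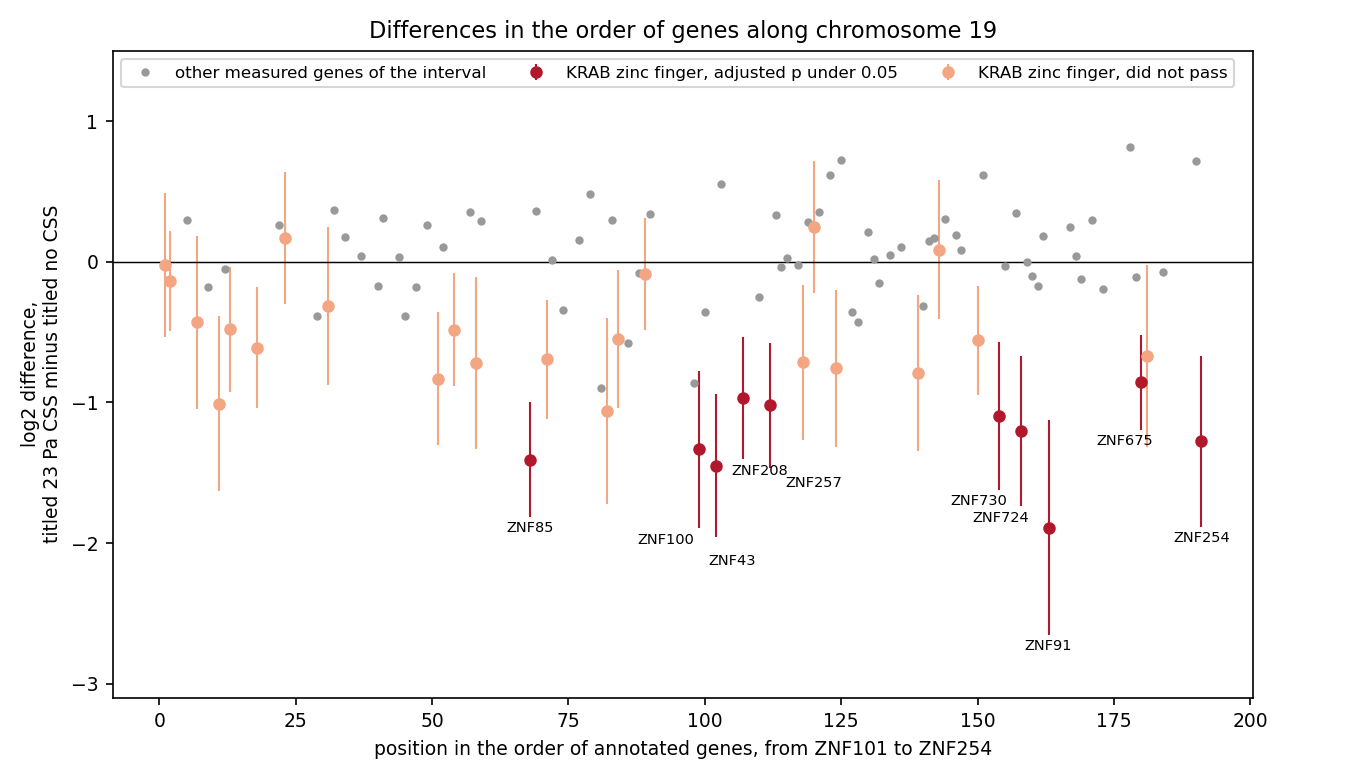
Log2 difference, titled 23 Pa CSS minus titled no CSS (vertical axis), by position in the order of annotated genes from ZNF101 to ZNF254 (horizontal axis), with 95% intervals for the 32 genes and small grey points for the other 68 measured genes. The 10 genes that passed lie between −1.89 and −0.86, while the median of the grey points is 0.07. Most grey points are genes that averaged below background.

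The machinery that KRAB domains recruit was read from a list of corepressor and silencing genes. Of 33 measured genes of that list 1 fell (3.03%), 1 rose and 31 did not pass, against 0.97% lower and 1.36% higher of all genes. The median difference was −0.08, with genes on both sides. An unadjusted limma p under 0.05 was reached by 9 on the lower and 10 on the higher side, against 6.74% and 12.6% of all genes. Groups did not overlap in 7 with the samples titled 23 Pa CSS lower and in 8 with them higher, against 4.6% and 9.1% of all genes. ATRX, a chromatin remodeller that works with DAXX, fell by 1.43 (8.67 ± 0.69 titled 23 Pa CSS, 10.10 ± 0.151 titled no CSS; SD, n = 4 each; limma adjusted p = 0.0356). MORC2, an ATPase recruited by the HUSH silencing complex, rose by 0.98 (9.05 ± 0.32 titled 23 Pa CSS, 8.08 ± 0.122 titled no CSS; adjusted p = 0.0289). TRIM28 itself, the shared corepressor, had signals of 13.71, 13.45, 13.06 and 13.69 in the samples titled 23 Pa CSS, against 12.73, 12.73, 12.93 and 12.34 in those titled no CSS. Its groups did not overlap, but the difference of 0.79 did not pass (adjusted p = 0.0704). SETDB1 had a difference of −0.03 (10.80 titled 23 Pa CSS, 10.83 titled no CSS; adjusted p = 0.96). ATF7IP, the partner of SETDB1, had −0.75 (adjusted p = 0.06), and the remodeller SMARCAD1 had −1.42 (adjusted p = 0.0712).

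A pair of other KRAB zinc finger clusters of chromosome 19 was read the same way, and no difference between clusters was tested. In the 19p13.2 cluster 0 of 25 genes passed in either direction (limma; 5 lower and 2 higher at an unadjusted p under 0.05), with a median of −0.23. The smallest p-values there belonged to ZNF69 (−0.71), ZNF439 (−0.67), ZNF700 (−0.87) and ZNF788P (−0.67), with adjusted p between 0.0859 and 0.155. In the 19q13 cluster 2 of 18 fell, ZNF221 (−1.17, adjusted p = 0.0299) and ZNF224 (−0.97, adjusted p = 0.0466), and 0 rose, with a median of −0.30. ZNF224 is known as a repressor of the aldolase A promoter. Further down by p-value were ZNF112 (−0.88, adjusted p = 0.127) and ZNF234 (−0.45, adjusted p = 0.251).

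Transcripts derived from retroelements are the targets named for ZNF91 and ZNF93, and only genes with such an origin can be read from this table. Of 15 listed genes derived from endogenous retroviruses or LINE-1, 9 were measured and 0 passed (limma; 1 lower and 1 higher at an unadjusted p under 0.05). Only ERVK3-1 (9.39 titled 23 Pa CSS, 9.29 titled no CSS) and ERVK13-1 (8.23 titled 23 Pa CSS, 8.35 titled no CSS) averaged above background. The lack of calls therefore says little about the others, L1TD1 included. The median difference of the 9 was 0.09, as over all genes. L1TD1, a domesticated LINE-1 gene, averaged 4.19 in the samples titled 23 Pa CSS and 3.72 in those titled no CSS (adjusted p = 0.251). ERVW-1, which encodes syncytin, averaged 6.63 titled 23 Pa CSS and 7.14 titled no CSS (adjusted p = 0.286). ERVV-2 and ERVMER34-1 came next by p-value, with differences of 0.21 and 0.17 (adjusted p = 0.585 and 0.747). SVA and LINE-1 copies themselves were not analysed here.

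**Figure D5:**
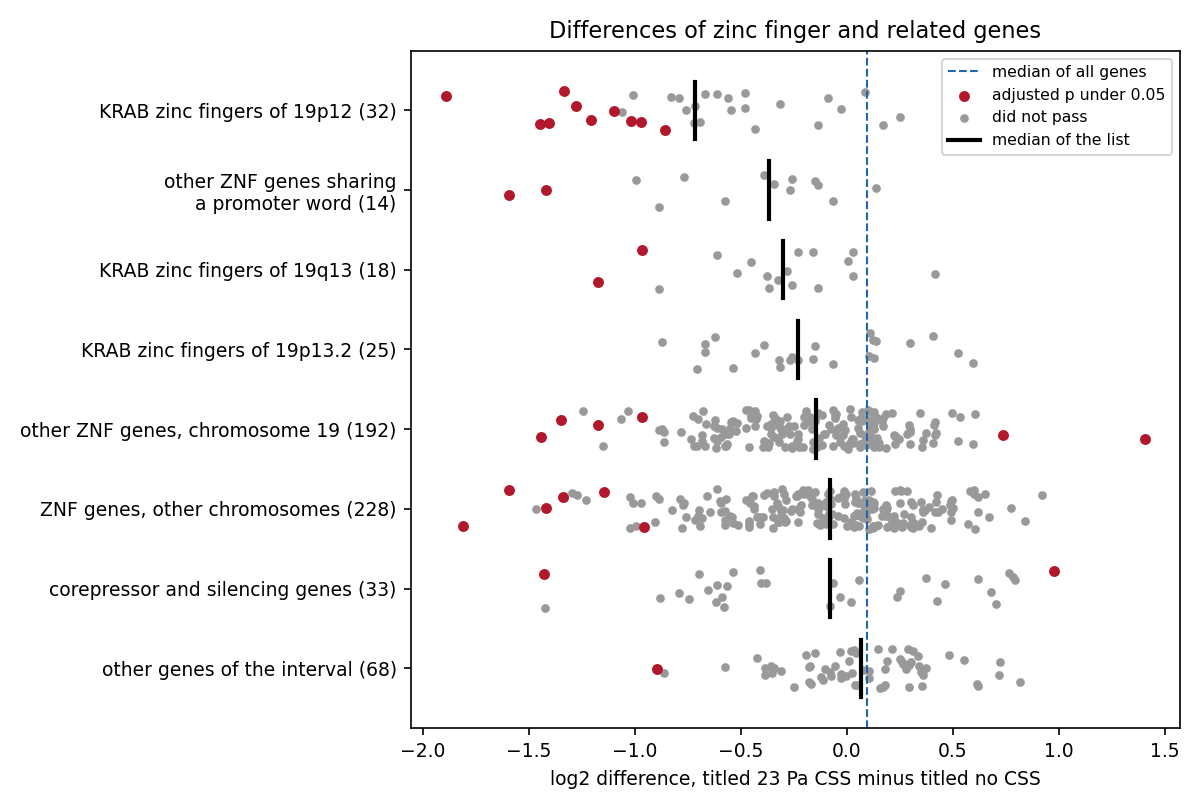
Log2 difference, titled 23 Pa CSS minus titled no CSS (horizontal axis), of each gene in 8 lists (rows, number of measured genes in brackets), with large points for an adjusted p under 0.05, a bar at the median of each list and a dashed line at the median of all genes, 0.09. The bar of the 19p12 genes lies at −0.72 and that of the other genes of the interval at 0.07. Most of those other genes averaged below background.

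The genes can share array signal as they share promoter sequence. Probe sequences were not used here, so a probe that matches several paralogues cannot be told from one that matches a single gene, and the 32 genes are not 32 independent measurements. With either promoter word there were 20 measured genes, whose median difference was −0.84 and among which all 10 that passed are found. The 4 measured genes with an exact match to neither word, ZNF101, ZNF14, ZNF682 and ZNF708, had a median of −0.37. Of these, ZNF14 holds both words with only the last letter changed, so the split rests on exact letters. With 4 genes on one side, and words picked from these promoters, this is a description and not a test. ZNF90 and ZNF93, whose promoters share a run of 45 bases, had differences of 0.17 and −0.48, and ZNF675 and ZNF91, which share 43, had −0.86 and −1.89.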

How the data were processed

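RNA of 8 samples was measured on Affymetrix arrays. The table the authors deposited holds log2 signal for 138745 rows, made with Transcriptome Analysis Console, per the submitters' processing notes. No version, summarisation, normalization or genome build is given in the sources used here. Per the labels the platform is the Human Transcriptome Array 2.0, although the row identifiers are built like those of a different array; gene names come from GEO's platform annotation.

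Of the rows, 2995 controls were set aside. Of the remaining 135750 transcript clusters, 36176 name 1 gene, 1119 several and 98455 none. Groups followed the sample titles. Deposited values entered limma's lmFit and eBayes (limma 3.58.1, R 4.3.3; two-sided tests; degrees of freedom 6 residual, 5.28 prior) without a filter, and p-values were adjusted over all transcript clusters by the Benjamini-Hochberg method. Tables were read with the data.table package, version 1.17.8. Promoters were searched with Python 3.11.15 and pandas 2.3.3, and figures drawn with matplotlib 3.10.9. Array signal carries no count, so the number of arrays sets the precision.

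The members and all gene lists were chosen with earlier results of these data known. Named are all members and, from each list, the genes that passed (at most 6) and up to 4 with the smallest p, with TRIM28 and SETDB1. Sample values are given for members that passed, the next 6 by p, ZNF91 and ZNF93. Zinc finger lists by symbol and the promoter words were added after the values were seen. The fit was first tested on simulated data. Alternatives covered the scaling of arrays, a background filter, the replicate block, the variance prior, array weights, the rows per gene, the rows adjusted over and leaving out each sample. The replicate numbers in the titles did not pair the samples. A list of all KRAB C2H2 genes, which needs protein sequences, was not used here.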

Additional observations from a re-analysis of the deposited data

Results flagged for a closer look

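For 94 genes, those with a value in the text and all measured markers, the 4 samples of a group were searched for a sample far from the other 3, its gap to the nearest being more than 0.829 of the range of the group. Chance gives about 1 such sample in 20 groups, and 8 were found in 188 groups. ZNF681 had a signal of 7.155 in titled 23 Pa CSS replicate 1, against 8.4 to 8.649 in the other replicates of that group. ATRX measured 7.649 in the same sample, against 8.904 to 9.143 in its group. RPS27P29 was high there, at 16.84 against 16.14 to 16.26. The other 5 lie in samples titled no CSS. ZNF69 had 7.012 in replicate 2, against 7.485 to 7.571 in the others of that group. ZNF829 measured 7.331 in replicate 3, against 6.619 to 6.632, and SOX2 had 10.92 in the same sample, against 10.54 to 10.56. SOX9 had 6.768 in replicate 1, against 7.064 to 7.117, and OLIG2 had 4.431 in replicate 4, against 4.866 to 4.906.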

How the results depend on the processing

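All 10 genes that fell kept a negative difference under every alternative in which they were tested, and 0 of the 32 passed as higher under any of them. Quantile normalization left 7 of the 10, and split all calls into 1126 higher and 1448 lower transcript clusters, against 789 and 1938 as reported. Centring on hybridisation controls, which moved the median of all genes to −0.22 (0.09 as reported), gave 20 of the 32 lower and a median of −1.03. Relative to all genes the median of the 32 was −0.81 both ways. That follows from the method, which subtracts the same constant from every gene of an array, and is no support. Centring on hybridisation controls split all calls into 373 higher and 8208 lower. With only transcript clusters above the antigenomic background, 13 of 17 tested genes were lower, with a median of −1.01 (1927 higher and 2042 lower in all). This filter on the mean favours lower calls: of the 17, ZNF91 was kept with all its samples titled 23 Pa CSS below the threshold and all titled no CSS above it, and ZNF85, ZNF724, ZNF737 and ZNF681 with some below. The 13 and the median therefore give no support. With 1 row for each gene 11 of the 32 were lower (1020 and 721 in all) and with the mean of all rows of a gene 9 (431 and 308). Centring on array medians, array weights of either kind, and a robust prior with a trend gave 10 each (a robust prior 1197 higher and 2420 lower in all).

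In the replicate block fit, 2 of the 32 were lower, and the other lists gave 0 higher corepressor genes, 0 lower 19q13 genes and 0 lower genes of the interval (302 higher and 1027 lower transcript clusters in all). The numbers do not pair the samples: same-numbered samples correlated between −0.079 and −0.018, and 0 of 4 correlated best with their own number.

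Leaving out 1 sample gave 1 to 13 of the 32 lower, 0 to 3 corepressor genes lower and 0 to 2 higher, 0 to 1 of the 19p13.2 cluster, 0 to 2 of the 19q13 cluster, and 0 to 2 genes of the interval lower. All transcript clusters gave 266 to 4077 lower and 145 to 1283 higher. Corepressor genes lower and higher were 6 and 0 with hybridisation controls, 5 and 7 with the background filter, 2 and 3 with the robust prior and 4 and 4 with 1 row for each gene; quantile normalization gave 0 lower. The 19p13.2 cluster had 4 lower with hybridisation controls, 2 with the background filter and 2 with 1 row for each gene, and the 19q13 cluster had 4 with hybridisation controls and 0 with quantile normalization. Genes of the interval lower were 3 with hybridisation controls, 2 with 1 row for each gene and 0 with quantile normalization or the background filter. Higher ones were 1 with the background filter, the robust prior or 1 row for each gene. The cause was not tested. Among single genes and settings, 780 results kept their side of the threshold, 104 lost it and 44 gained it. The comparison with all KRAB C2H2 genes was not run.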

Other observations

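Zinc finger genes outside 19p12 were listed by symbol after the values were seen. On other chromosomes 6 of 228 fell (2.63%) and 0 rose, against 0.97% and 1.36% of all genes. Of genes in the signal range of the 19p12 genes, 1.63% fell, and no difference between these shares was tested. At an unadjusted limma p under 0.05, 45 of the 228 were lower and 13 higher, against 6.74% and 12.6% of all genes. In 33 every sample titled 23 Pa CSS was below every one titled no CSS, and in 9 above, against 4.6% and 9.1% of all genes. The median difference of the 228 was −0.08. ZNF92 had the largest difference of them, at 9.88 ± 0.76 in the samples titled 23 Pa CSS and 11.69 ± 0.154 in those titled no CSS (SD, n = 4 each; difference −1.81, limma adjusted p = 0.0209). ZNF138 (−1.59, adjusted p = 0.028), ZNF195 (−1.42, adjusted p = 0.0355), ZNF267 (−1.34, adjusted p = 0.0158), ZNF148 (−1.15, adjusted p = 0.0443) and ZNF141 (−0.96, adjusted p = 0.0252) fell as well. On chromosome 19 outside the interval 4 of 192 fell (2.08%) and 2 rose, with a median of −0.14, beside the same shares of all genes. At an unadjusted limma p under 0.05, 39 of the 192 were lower and 7 higher. Groups did not overlap in 28 with the samples titled 23 Pa CSS below and in 6 with them above. ZNF358 (1.41, adjusted p = 0.0273) and ZNF526 (0.73, adjusted p = 0.0443) were the 2 that rose, and ZNF829 (−1.44, adjusted p = 0.0332) and ZNF146 (−1.35, adjusted p = 0.0301) fell beside ZNF221 and ZNF224.

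Of 31 other genes whose promoter holds either of the words printed with the 19p12 promoters, 20 were measured, 14 of them ZNF genes. Of the 14, 2 fell (ZNF138 on chromosome 7 and ZNF195 on chromosome 11, both with both words), 13 had a difference below 0, and the median was −0.37. Next by p-value were ZNF273 (−0.77, adjusted p = 0.0613), ZNF680 (−0.99, adjusted p = 0.0645) and ZNF519 (−0.89, adjusted p = 0.0809). Of the 6 measured genes without a ZNF symbol 0 passed, and their median was 0.19. Among 343 other ZNF genes with a promoter and neither word, 7 fell (2.04%), 2 rose and the median was −0.07. Of all genes, 0.97% fell and 1.36% rose, and of those in the signal range of the 19p12 genes 1.63% fell. Only 2 genes fell among the 14, so their share is imprecise. The sets with and without a word were chosen after the values were seen and were not tested against each other.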
